A study of Mus musculus with 6 samples.

Results

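Transcripts of the axon guidance ligands and receptors were followed in preSC cells, a mouse cell line that the labels describe as a precursor of small cell lung cancer (SCLC). The members were all genes of the count files whose symbols name a semaphorin of classes 3 to 7, a plexin, a neuropilin, an ephrin, an Eph receptor, a Slit, a Robo, a netrin, an Unc5 receptor or Dcc. This rule found 71 members among 23284 genes, 37 ligands and 34 receptors. RNA was sequenced from 6 libraries, each of cells with a lentiviral pLKO.1 vector. In the 3 shCrebbp libraries Crebbp was targeted, each time by another hairpin, and these are called hairpins 1, 2 and 5 after the labels. The 3 controls had vector without insert (shEmpty, control replicates 1 and 2) or the non-silencing shNS vector (control replicate 3). The comparison asks which genes depend on Crebbp, the gene of a histone acetyltransferase known as CREB-binding protein. Whether the libraries came from separate cultures is not stated, so the p-values reflect only how much these libraries vary, which may be technical and includes differences between hairpins.

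Guidance cues steer growing axons and migrating cells, and the same families act in lung branching, blood vessels and epithelia. Class 3 semaphorins are secreted and mostly act through neuropilins paired with A-type plexins, while most other semaphorins are membrane-bound and bind plexins directly. Ephrins are membrane-bound ligands of the Eph receptor tyrosine kinases, A-type ephrins by a lipid anchor and B-type ephrins by a membrane-spanning segment. Slits are secreted ligands of Robo receptors, and netrin-1 acts through Dcc and the Unc5 receptors.

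Reads counted in genes numbered 13622020 to 14651158 in shCrebbp libraries and 13687770 to 19804949 in controls, and 0.224% to 0.296% of them fell in the 71 members. Normalized levels are given in CPM, the read count of a gene scaled to a common library size. Crebbp itself measured 46.2 (hairpin 1), 58.3 (hairpin 2) and 48.9 CPM (hairpin 5) in shCrebbp libraries, while the controls measured 66.2, 69.6 and 69.4 CPM. The hairpin libraries were all below the controls, with a log2 fold change (shCrebbp over control) of -0.42 ± 0.10 (SE, edgeR adjusted p = 0.0999). All 12 neuroendocrine markers passed the filter on low counts, and edgeR called 0 of them, against 1.25% of all tested genes. At an unadjusted p under 0.05 there were 5, against 16.5% of all tested genes. Calca was at 632, 831 and 1161 CPM with hairpins 1, 2 and 5, against 1592 to 2009.5 CPM in controls (log2 fold change -1.04, edgeR adjusted p = 0.0558). Besides Calca, the 5 held Chga (log2 fold change -0.29), Scg2 (-0.35) and Resp18 (-0.62), which were lower in shCrebbp, and Ncam1 (0.68), which was higher. The median over the 12 was -0.03. The 12 epithelial markers summed to 1355 to 1897 CPM in shCrebbp libraries and 2878 to 3525 CPM in controls, and 7 of the 11 tested were called lower. Leukocyte markers summed to 5.72 to 6.61 CPM in shCrebbp libraries and 5.42 to 8.32 CPM in controls, with Emr1 at 0 in all 6. Fibroblast markers summed to 14.99 to 64.3 CPM in shCrebbp libraries and 38.2 to 46.1 CPM in controls, most of it Dcn, with Col3a1 at 0. In the endothelial list, Vwf supplied most of 182 to 438 CPM in shCrebbp libraries and 421 to 451 CPM in controls, while Cldn5 and Emcn were at 0. Since the samples are bulk RNA, fewer cells of a type and less RNA per cell cannot be told apart.

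In control cells the levels of the guidance transcripts were uneven, with a few genes far above most others. Of the 71 members, 52 had a mean of at least 1 CPM in controls (28 ligands and 24 receptors) and 19 were below it. To compare genes, CPM was divided by exon length. Ntn4, which encodes the basement membrane netrin that binds laminins, was highest at 44.3 ± 7.64 CPM per kilobase (SD, n = 3). Next were Robo1, a Slit receptor (34.2 ± 3.81), and the plexin gene Plxnb2 (33.8 ± 1.99), and the library ranges of neighbours among these 3 overlapped. The receptor gene Ephb3 followed at 29.0 ± 0.592 CPM per kilobase, below the range of Plxnb2. The ligand gene Efna5 (21.7 ± 0.544) and Plxnb1, which encodes the receptor of semaphorin 4D (21.1 ± 3.20), overlapped with each other and lay below Ephb3. Unc5a, a netrin receptor gene (16.4 ± 1.42), overlapped with Sema3e (14.99 ± 0.973). Below them came Efnb1 (12.1 ± 0.172), Ephb2 (11.7 ± 1.42), Plxna1 (10.4 ± 0.278) and Plxna2 (8.64 ± 0.134). The 71 members summed to 357.6 ± 24.3 CPM per kilobase in controls, of which Ntn4 made up 12.4%. With the longest annotated transcript as length, 11 of the 12 highest members were the same and Robo1 was first.

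**Figure D1:**
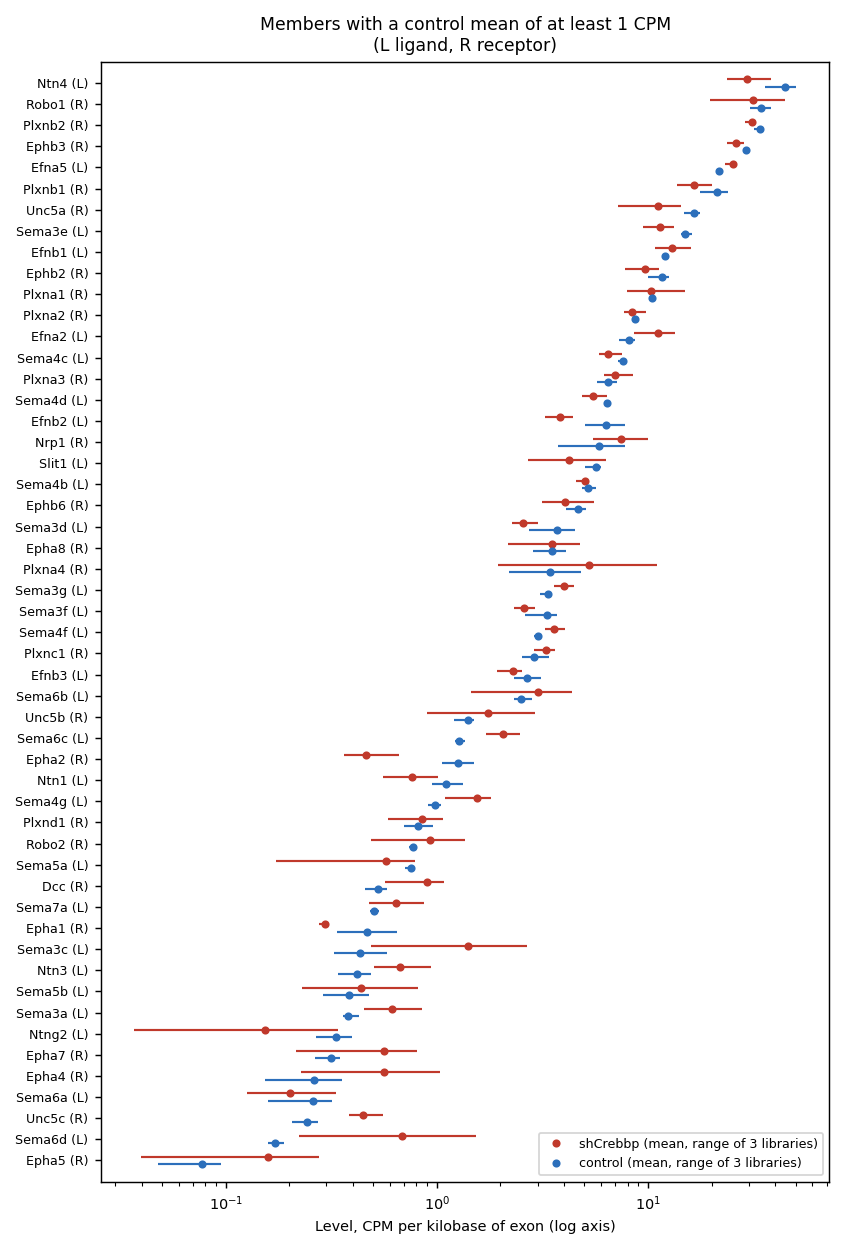
Level of the 52 members with a control mean of at least 1 CPM, in CPM per kilobase of exon on a log axis, ordered by the control mean, with L for ligands and R for receptors. Points are means and bars the range of 3 libraries, shCrebbp above control; Ntn4, Robo1, Plxnb2 and Ephb3 lead in controls, and the bars of Plxna4, Sema5a, Sema3c and Sema6d are wide in shCrebbp.

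Single members often made up most of a family's level. In controls Robo1 supplied 97.7% of the summed Robo level, Slit1 99.4% of that of the Slits, Nrp1 99.2% of that of the neuropilins and Ntn4 95.7% of that of the netrins. Unc5a supplied 88.2% among the netrin receptors and Efna5 70.7% among the A-type ephrins. The EphB receptors were carried by Ephb3 (64.0%), and the much lower EphA receptors by Epha8 (58.5%). Slit3, Robo4 and Ephb1 had no read in any library and entered their family sums as 0, which may come from the annotation. Class 4 to 7 semaphorins were spread more evenly, with Sema4c, a membrane semaphorin gene, at 26.1% of their sum. Plexins had the highest sum of any family, at 82.7 ± 15.5 CPM per kilobase in shCrebbp cells and 87.6 ± 5.12 in controls (SD, n = 3 each). Among known ligand and receptor pairs, Sema4d (6.41 ± 0.171 CPM per kilobase in controls) was present with its receptor gene Plxnb1, and Slit1 (5.64 ± 0.517) with Robo1. Sema3e was abundant, while Plxnd1, which encodes its neuropilin-independent receptor, stood at 0.817 ± 0.132 CPM per kilobase. Ntn1, the gene of the axon-attracting netrin, and its receptor gene Dcc stood at 1.101 ± 0.198 and 0.524 ± 0.0646 CPM per kilobase.

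Between shCrebbp and control cells, no member passed the threshold over all genes. Of the 57 members that passed the filter on low counts, 0 had an adjusted p under 0.05 (edgeR), against 1.25% of the 13390 genes tested (0.276% higher and 0.978% lower). At an unadjusted p under 0.05 there were 17 members (29.8%, 11 higher and 6 lower), against 16.5% of all tested genes (7.99% higher and 8.46% lower). DESeq2 called 6 of the 59 members to which it gave an adjusted p, against 5.30% of genes. These were Epha2 and Efnb2, which were lower, and Sema3c, Sema6c, Sema6d and Unc5c, which were higher. Limma-voom called 0 (1.19% of genes), and with library quality weights 4 of 57 (Epha2, Slit1 and Unc5a lower, Unc5c higher), against 5.09% of genes. In edgeR the log2 fold change was positive in 30 and negative in 27 of the 57. The median was 0.11, against 0.01 over all tested genes. The 27 more abundant members (average log2 CPM of 4 or more, a limit chosen after seeing the data) leaned the other way. Of these, 9 were positive and 18 negative, with a median of -0.12 against 0.01 over all genes of such levels. The hairpin libraries were all above the controls in 11 members and all below in 6, together 29.8% of the 57 against 22.4% of all tested genes (11.4% above and 11% below). Members that pass a filter on low counts may do so through the group in which they are high, so these counts describe the tested members and not the 71.

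**Figure D2:**
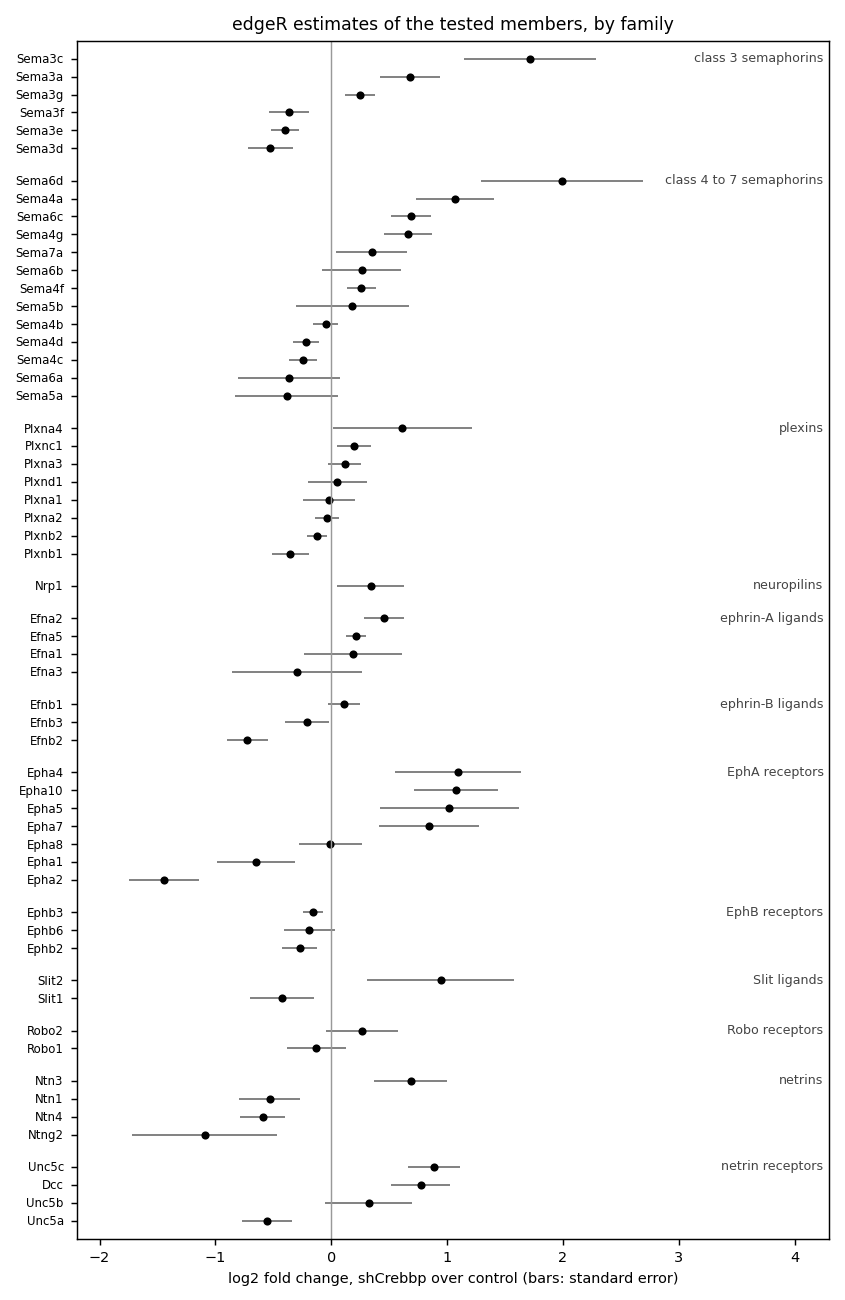
log2 fold change of shCrebbp over control for the 57 tested members, grouped by family, with the edgeR standard error as bars. Estimates run from -1.44 (Epha2) to 1.99 (Sema6d), and none passed an adjusted p of 0.05.

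Among the Eph receptors, Epha2 had the smallest p of all members. EphA2 is a receptor of A-type ephrins in epithelial cells. Epha2 was at 3.09, 1.71 and 1.70 CPM with hairpins 1, 2 and 5, while the controls measured 6.999, 5.67 and 4.96 CPM. All 3 hairpin libraries lay below all 3 controls. The log2 fold change was -1.44 ± 0.30, a 2.72-fold lower estimate in shCrebbp (edgeR adjusted p = 0.0669). Over 14 alternatives its adjusted p ranged from 0.00170 to 0.308, and it was under 0.05 in 4 of them. The epithelial markers given above were lower in the same libraries, and their part in the level of Epha2 was not tested.

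Among the ephrins, the lowest p belonged to Efnb2, which encodes a ligand of EphB receptors and of EphB4 in blood vessels. Efnb2 was at 26.2, 22.2 and 30.1 CPM with hairpins 1, 2 and 5, against 53.2, 42.3 and 34.3 CPM in the 3 controls. The hairpin libraries were again all below the controls, although hairpin 5 and shNS were close. The log2 fold change was -0.73 ± 0.18 (edgeR adjusted p = 0.0974). The other B-type ephrins overlapped between groups. Efnb1 averaged 45.0 ± 9.05 CPM in shCrebbp cells and 41.7 ± 0.593 CPM in controls, and Efnb3 7.30 ± 1.05 and 8.46 ± 1.31 CPM.

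The promoters of the 3 members with the smallest p (Epha2, Efnb2 and Unc5c) are shown because Crebbp encodes a partner of CREB, a factor that binds the cAMP response element. The windows run from 250 bases before to 50 after the gene start (RefSeq, GRCm38.p6, written 5′ to 3′ on the strand of the gene). Capitals mark the short site of that element, TGACG, or its reverse complement CGTCA.
Epha2, chr4:141300971-141301270, plus strand: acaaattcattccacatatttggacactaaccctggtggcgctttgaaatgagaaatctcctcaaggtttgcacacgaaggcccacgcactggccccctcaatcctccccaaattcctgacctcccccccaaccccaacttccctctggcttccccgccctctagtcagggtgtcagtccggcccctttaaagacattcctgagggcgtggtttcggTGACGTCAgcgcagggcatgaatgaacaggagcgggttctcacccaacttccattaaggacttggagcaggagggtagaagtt
Efnb2, chr8:8661193-8661492, minus strand: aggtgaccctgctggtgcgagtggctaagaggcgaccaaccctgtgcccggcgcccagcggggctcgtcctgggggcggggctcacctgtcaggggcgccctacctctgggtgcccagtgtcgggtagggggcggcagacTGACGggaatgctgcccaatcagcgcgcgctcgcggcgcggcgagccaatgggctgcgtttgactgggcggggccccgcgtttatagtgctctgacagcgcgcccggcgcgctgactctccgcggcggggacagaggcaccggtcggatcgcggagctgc
Unc5c, chr3:141465314-141465613, plus strand: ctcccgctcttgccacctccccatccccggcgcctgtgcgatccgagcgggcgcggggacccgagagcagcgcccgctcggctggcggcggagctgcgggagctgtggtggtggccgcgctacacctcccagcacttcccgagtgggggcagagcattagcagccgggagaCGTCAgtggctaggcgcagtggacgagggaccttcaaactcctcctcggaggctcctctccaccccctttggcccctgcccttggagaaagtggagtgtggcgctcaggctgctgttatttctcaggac
In the Epha2 window a pair of short sites overlaps to form the full site TGACGTCA, whose first letter lies 33 bases before the gene start. The Efnb2 window holds a short site 110 bases before the start, and the Unc5c window holds a short site on the other strand, 79 bases before it.

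A window was at hand for 61 of the 71 members, with 77 windows in all. The short site occurred on either strand in 10 of them (13.0%), against 20.8% of the 32851 windows of the table. The full site occurred in 1 member window (1.30%), against 1.79% of all windows. The other members with a short site were Efnb1, Epha4, Ephb1, Ephb3, Sema3d, Sema5a and Sema7a. These matches describe letters only, and binding was not measured.

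The A-type ephrins, whose receptors are the EphA kinases, had their highest level in Efna5. Efna5 was at 93.3, 104.9 and 106.0 CPM with hairpins 1, 2 and 5, against 90.1, 86.3 and 86.3 CPM in the controls, with a log2 fold change of 0.21 ± 0.08 (edgeR adjusted p = 0.253). Efna2 was at 28.7, 24.1 and 18.3 CPM in shCrebbp libraries, against 15.5, 17.8 and 18.5 CPM in controls, and the groups overlapped only at hairpin 5. The summed A-type ephrin level was 37.3 ± 1.53 CPM per kilobase in shCrebbp cells and 30.7 ± 0.112 in controls, without overlap. The sum of the EphB receptors was 39.8 ± 1.89 CPM per kilobase in shCrebbp cells and 45.4 ± 1.61 in controls, also without overlap. Of the other family sums, that of the class 3 semaphorins did not overlap either, at 22.6 ± 0.531 CPM per kilobase in shCrebbp cells and 26.2 ± 1.91 in controls. Among all tested single genes, 22.4% had groups that did not overlap. Each of these sums came mostly from 1 member in controls (Efna5 70.7%, Ephb3 64.0% and Sema3e 57.2%), and family sums were not tested. Among the EphB receptors, Ephb3 was at 157, 173 and 188 CPM with hairpins 1, 2 and 5, against 192, 197 and 189 CPM in controls (log2 fold change -0.16 ± 0.09, edgeR adjusted p = 0.421). Ephb2 averaged 122 ± 22.4 CPM in shCrebbp cells and 147 ± 17.9 CPM in controls. Ephb6, which encodes a kinase-inactive Eph receptor, averaged 15.3 ± 4.87 CPM in shCrebbp cells and 17.5 ± 1.97 CPM in controls.

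The other EphA receptor genes were low, and several of them differed among hairpins. Epha8 had the highest level per kilobase of the family and close means in both groups, 16.5 ± 6.11 CPM in shCrebbp cells and 16.6 ± 2.91 CPM in controls. Epha7, a receptor of A-type ephrins in the nervous system, was at 2.13, 6.62 and 7.96 CPM with hairpins 1, 2 and 5, against 3.42, 2.62 and 3.28 CPM in controls. Hairpins 2 and 5 were above the controls and hairpin 1 below them. Epha4 was at 1.84, 8.33 and 3.47 CPM and Epha5 at 0.661, 4.63 and 2.65 CPM with hairpins 1, 2 and 5, against 1.24 to 2.86 CPM and 0.803 to 1.59 CPM in controls. Epha4, Epha5 and Epha7 had the same pattern, with hairpins 2 and 5 above and hairpin 1 within or below the control range. Epha10, another kinase-inactive receptor gene, was at 0.817 to 1.25 CPM in shCrebbp libraries and 0.365 to 0.562 CPM in controls. Epha1 was at 1.09 to 1.21 CPM in shCrebbp libraries and 1.33 to 2.55 CPM in controls. Exons of Epha1 overlap those of Zyx on the opposite strand over 6.01% of their length. Because the strand setting is not given, whether reads there could be assigned is not known. Exon overlaps with other genes were larger in some other members, such as Ntng2 (14.0%, same strand) and Plxna1 (10.7%, opposite strand).

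The class 3 semaphorins, the secreted ones, were led by Sema3e. Sema3e was at 106.0, 88.0 and 122.6 CPM with hairpins 1, 2 and 5, against 149.6, 133 and 135 CPM in the 3 controls. All hairpin libraries were below the controls, with a log2 fold change of -0.40 ± 0.12 (edgeR adjusted p = 0.166). Sema3d averaged 22.0 ± 3.44 CPM in shCrebbp cells and 31.7 ± 7.76 CPM in controls, and the groups overlapped. Sema3a, which encodes the founding axon-repelling semaphorin, was at 6.25, 11.8 and 7.42 CPM with hairpins 1, 2 and 5, against 4.96, 5.0 and 5.91 CPM in controls. It was above the controls in each hairpin library (log2 fold change 0.68 ± 0.26, edgeR adjusted p = 0.242). Sema3d, Sema3a and Sema3e lie near each other on chromosome 5, with 0 or 1 other protein-coding gene between neighbours. Sema3f averaged 13.4 ± 1.60 CPM in shCrebbp cells and 17.2 ± 3.14 CPM in controls, and Sema3g 18.1 ± 1.98 and 15.3 ± 1.07 CPM.

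Among the membrane-bound semaphorins of classes 4 to 7, Sema6c had the smallest p. Sema6c, which encodes a class 6 semaphorin, was at 14.6, 11.7 and 10.1 CPM with hairpins 1, 2 and 5, against 8.02, 7.26 and 7.30 CPM in controls. Each hairpin library was above each control (log2 fold change 0.69 ± 0.18, edgeR adjusted p = 0.106). Sema4g was at 15.6, 15.1 and 9.46 CPM with hairpins 1, 2 and 5, against 7.87, 8.47 and 9.05 CPM in controls, with hairpin 5 close to shNS (log2 fold change 0.66 ± 0.21, edgeR adjusted p = 0.171). Sema4a was low, at 1.98, 1.42 and 1.63 CPM with hairpins 1, 2 and 5 and at 1.02, 0.549 and 0.803 CPM in controls (log2 fold change 1.07 ± 0.34, edgeR adjusted p = 0.172). The more abundant class 4 genes had an unadjusted p above 0.05. Sema4b averaged 28.3 ± 2.09 CPM in shCrebbp cells and 29.2 ± 2.34 CPM in controls, Sema4c 29.5 ± 4.35 and 34.9 ± 1.62 CPM, and Sema4d 42.3 ± 5.96 and 49.2 ± 1.31 CPM. Of the 13 members of these classes, all of which were tested, 8 had positive and 5 negative log2 fold changes, with a median of 0.26.

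Plexins, the semaphorin receptors, had 8 tested members with log2 fold changes between -0.35 and 0.61, and no unadjusted p was under 0.05. Plxnb2 was at 249.7, 247 and 222 CPM with hairpins 1, 2 and 5, against 274, 265 and 244 CPM in controls, with a log2 fold change of -0.12 ± 0.08 (edgeR adjusted p = 0.533). Plxnb1 was at 193, 153 and 131 CPM in shCrebbp libraries, against 230.1, 209 and 169 CPM in controls (log2 fold change -0.35 ± 0.16, edgeR adjusted p = 0.321). Plxna2 averaged 144 ± 19.8 CPM in shCrebbp cells and 148 ± 2.30 CPM in controls. Plxna1 was at 135 CPM with hairpin 1 and at 71.6 and 73.3 CPM with hairpins 2 and 5, against 92.8 to 97.4 CPM in controls, so the hairpin libraries lay on both sides of the controls. The neuropilin gene Nrp1, which encodes a co-receptor of class 3 semaphorins and VEGF, varied within both groups. It was at 65.8, 53.6 and 98.1 CPM with hairpins 1, 2 and 5 and at 76.4, 58.5 and 36.6 CPM in the 3 controls (log2 fold change 0.34 ± 0.29, edgeR adjusted p = 0.625).

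In the Slit and Robo families, Robo1 was the member with the most reads. It was at 734, 323 and 492 CPM with hairpins 1, 2 and 5, against 629, 561 and 504 CPM in controls. Hairpin 1 was above all controls and hairpins 2 and 5 were below them, and the log2 fold change was -0.13 ± 0.25 (edgeR adjusted p = 0.864). Its neighbour on chromosome 16, Robo2, had another order, at 8.30, 23.0 and 15.9 CPM with hairpins 1, 2 and 5, against 12.6 to 13.6 CPM in controls. Slit1 was at 37.6, 21.2 and 16.0 CPM in shCrebbp libraries and at 35.3, 35.0 and 29.9 CPM in controls (log2 fold change -0.42 ± 0.27, edgeR adjusted p = 0.495). Without hairpin 1, edgeR called Slit1 lower at -0.85 (adjusted p = 0.0343, with a range of 0.0343 to 0.812 over 14 alternatives). Slit2 was at 0.681 to 3.28 CPM in shCrebbp libraries and 0.366 to 1.17 CPM in controls.

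Ntn4, the highest member in controls, was at 98.6, 88.3 and 143 CPM with hairpins 1, 2 and 5, against 188, 175 and 134 CPM in the 3 controls. The groups overlapped, because hairpin 5 exceeded shNS (log2 fold change -0.59 ± 0.19, edgeR adjusted p = 0.185). Without hairpin 5 it was called lower (log2 fold change -0.84, edgeR adjusted p = 0.0454, with a range of 0.0454 to 0.528 over 14 alternatives). In shCrebbp cells the mean level of Ntn4 was 29.4 ± 7.74 CPM per kilobase, beside 31.3 ± 12.5 for Robo1 and 31.1 ± 1.95 for Plxnb2. Ntn1 averaged 4.76 ± 1.46 CPM in shCrebbp cells and 6.91 ± 1.24 CPM in controls, and Ntn3 3.43 ± 1.18 and 2.14 ± 0.376 CPM.

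The netrin receptor genes did not share a direction. Unc5c, a receptor gene of the repulsive netrin response, was at 7.57, 10.7 and 7.35 CPM with hairpins 1, 2 and 5, against 3.93, 4.69 and 5.26 CPM in controls. The hairpin libraries were all above the controls, with a log2 fold change of 0.89 ± 0.22 (edgeR adjusted p = 0.09995). Dcc, the receptor gene of the attractive response, was at 13.8, 14.2 and 7.49 CPM with hairpins 1, 2 and 5, against 7.66, 7.07 and 5.99 CPM in controls, where hairpin 5 lay between control replicates 1 and 2 (log2 fold change 0.77 ± 0.26, edgeR adjusted p = 0.189). Unc5a, the most abundant of them, was at 59.9, 50.1 and 30.1 CPM with hairpins 1, 2 and 5, against 73.5, 70.0 and 62.0 CPM in controls. It was below the controls in each hairpin library (log2 fold change -0.55 ± 0.22, edgeR adjusted p = 0.259). Unc5b was at 18.2 CPM with hairpin 1 and at 5.63 and 9.05 CPM with hairpins 2 and 5, against 7.51 to 9.39 CPM in controls.

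The hairpin libraries differed among themselves in many members. The range of the log2 ratio to controls over the 3 hairpins had a median of 0.81 among the 57 tested members and 0.37 among all tested genes, and over the 3 controls the medians were 0.35 and 0.19. The tested members were lower in level (median average log2 CPM 3.86 against 5.16). Among genes whose average log2 CPM was 4 or more, a limit chosen after seeing the data, the medians over hairpins were 0.48 in 27 members and 0.30 in all 9175 genes. Beyond a 2-fold difference from the control mean were 8 of the 57 members with hairpin 1 (14.0%), 11 with hairpin 2 (19.3%) and 7 with hairpin 5 (12.3%). Of all tested genes, 6.45% were beyond it with hairpin 1 (2.49% higher, 3.96% lower), 5.60% with hairpin 2 (3.47% higher, 2.13% lower) and 2.89% with hairpin 5 (0.963% higher, 1.93% lower). The members beyond it were 6 higher and 2 lower with hairpin 1, 10 higher and 1 lower with hairpin 2, and 2 higher and 5 lower with hairpin 5. In the 27 more abundant members the counts were 1, 0 and 2, against 1.84%, 1.90% and 0.512% of such genes, and 7 of the 27 had groups that did not overlap, against 21.9% of such genes. These comparisons rest on 1 library per hairpin and were not tested.

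**Figure D3:**
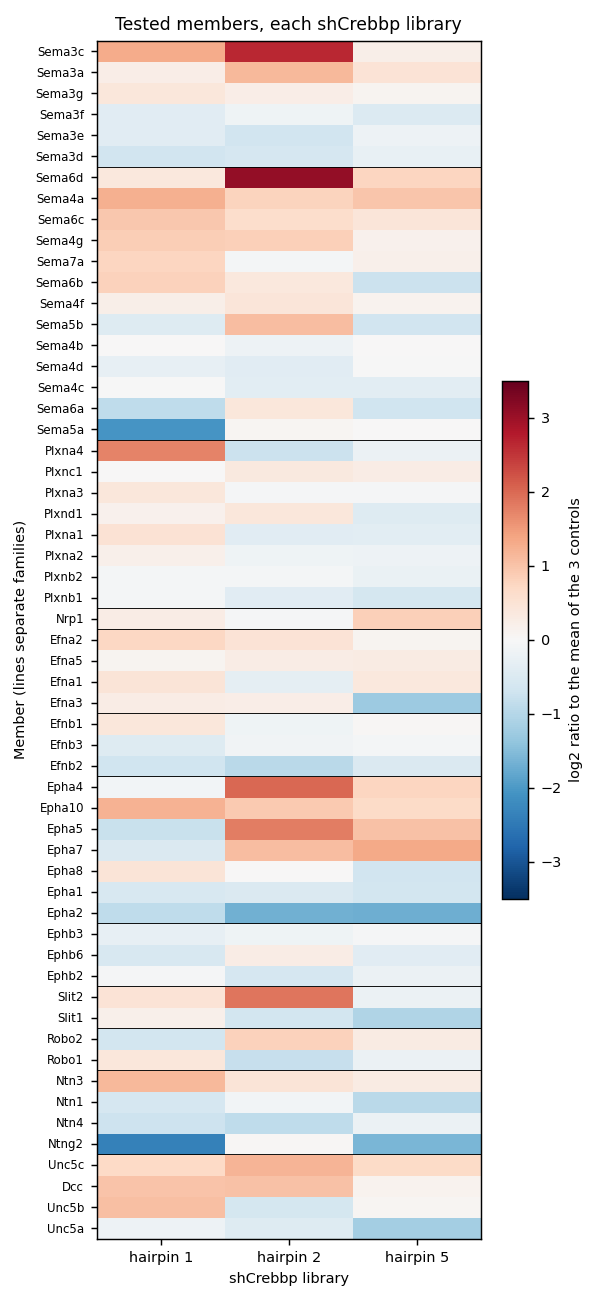
Ratio (log2) to the average control level for the 57 tested members (rows, lines separate families) in the 3 shCrebbp libraries (columns). Red is higher and blue lower than controls; Sema6d and Sema3c are high with hairpin 2 and Plxna4 (1.75) with hairpin 1, while Ntng2 (-2.38) and Sema5a (-2.07) are low with hairpin 1.

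Among tested members whose average log2 CPM reached 2, the widest spread over the hairpins was that of Sema6d, which encodes a transmembrane ligand of plexin-A1. Sema6d was at 2.35, 16.2 and 3.13 CPM with hairpins 1, 2 and 5, against 1.99, 1.77 and 1.68 CPM in controls. Each hairpin library was above each control, and hairpin 2 was far above the other libraries (log2 fold change 1.99 ± 0.70, edgeR adjusted p = 0.208). Without hairpin 2 the log2 fold change of Sema6d was 0.59. Sema3c, a secreted semaphorin gene, was at 7.50, 19.2 and 3.47 CPM with hairpins 1, 2 and 5, against 2.76, 2.32 and 4.16 CPM in controls, and hairpin 5 lay within the control range (log2 fold change 1.71 ± 0.57, edgeR adjusted p = 0.188, and 0.84 on the log2 scale without hairpin 2). In the same hairpin 2 library some neuronal markers were high and others were not. Stmn2, which encodes a microtubule regulator of neurons, was at 7.86, 59.8 and 13.2 CPM with hairpins 1, 2 and 5, against 0.715 to 4.82 CPM in controls. Dcx, which encodes doublecortin, was at 10.3, 49.5 and 14.2 CPM with hairpins 1, 2 and 5, against 5.69 to 10.2 CPM in controls. Rbfox3, Nefm, Gad1, Gad2 and Slc17a6 were also highest with hairpin 2, though Gad2 and Slc17a6 were low in all libraries. Tubb3 and Nefl were highest with hairpin 1, and Snap25 and Slc17a7 in a control. Snap25 was at 72.4, 119.1 and 119.6 CPM with hairpins 1, 2 and 5, against 121 to 129.5 CPM in controls. The 11 neuronal markers in the files summed to 302, 435 and 258 CPM with hairpins 1, 2 and 5, against 232 to 269 CPM in controls, and none of the 7 tested was called. Their part in the levels of Sema6d, Sema3c, Epha4 and Epha5 was not tested.

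Hairpin 1 stood apart in other members. Plxna4, which encodes a receptor of semaphorins 3A and 6A, was at 155 CPM with hairpin 1 and at 27.4 and 39.7 CPM with hairpins 2 and 5, against 30.8, 46.9 and 67.8 CPM in the 3 controls. Its log2 fold change was 0.61 ± 0.60 (edgeR adjusted p = 0.682) and -0.52 without hairpin 1. Sema5a, which encodes a transmembrane semaphorin with thrombospondin repeats, was at 3.23 CPM with hairpin 1 and at 14.7 and 14.3 CPM with hairpins 2 and 5, against 14.6, 14.4 and 13.2 CPM in controls. Outside hairpin 1, the other 5 libraries of Sema5a thus lay close together. Ntng2, which encodes a lipid-anchored netrin-G, was lower in level, at 0.147, 1.35 and 0.340 CPM with hairpins 1, 2 and 5, against 1.07, 1.59 and 1.31 CPM in controls, and the groups overlapped. It was thus low with hairpin 5 as well as hairpin 1. These levels rest on 2, 19 and 5 reads with hairpins 1, 2 and 5, against 21, 26 and 18 reads in controls. The endothelial marker gene Vwf was likewise low with hairpin 1 alone, at 163 CPM, against 388 and 411 CPM with hairpins 2 and 5 and 405 to 437 CPM in controls.

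**Figure D4:**
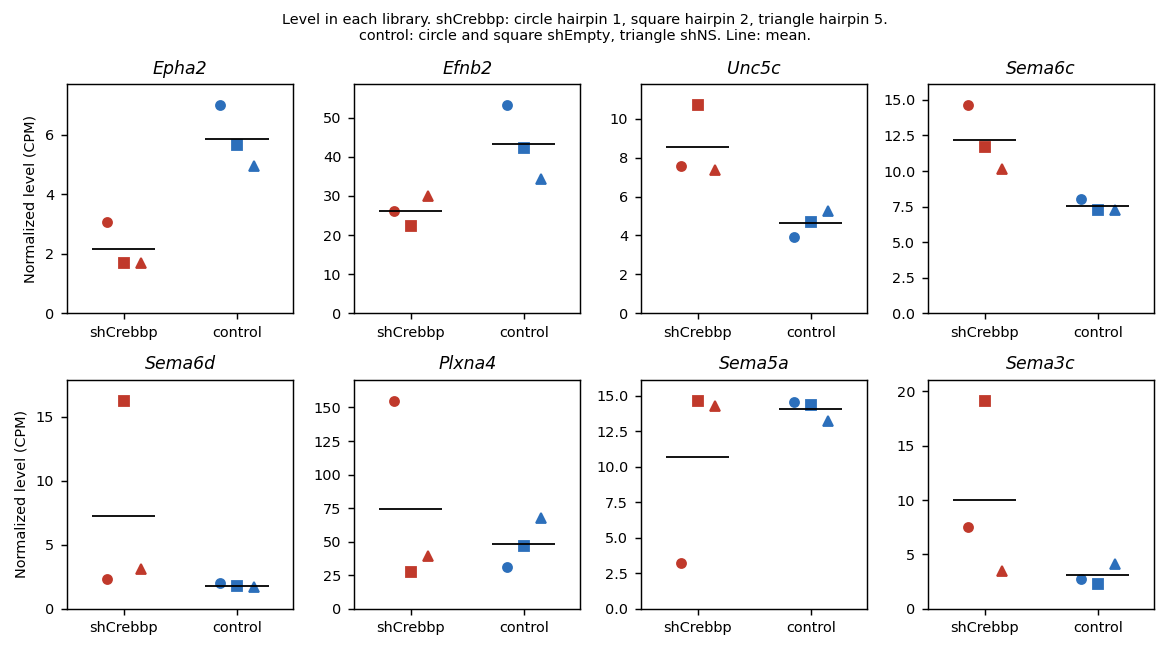
Level in CPM of 8 members in each library, on linear axes from 0, with shCrebbp left of control. Points are libraries and lines group means: Epha2 and Efnb2 are below all controls and Unc5c and Sema6c above them with each hairpin, while Sema6d, Plxna4, Sema5a and Sema3c are set apart by 1 hairpin library.

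The control vectors were compared to see how far the members vary without a Crebbp hairpin. Between shNS and shEmpty, 0 of 57 members had an adjusted p under 0.05 (edgeR), and 0 of 13390 genes (0%). At an unadjusted p under 0.05 there were 2 members, Sema3d (log2 fold change -0.61, 23.5 CPM in shNS against a mean of 35.8 CPM in shEmpty) and Nrp1 (-0.88, 36.6 against 67.5 CPM), and 0.747% of all genes. The fit takes the spread of the lone shNS library to be that of the other libraries, among them the hairpin libraries. Pairs of hairpin libraries differed more (a chi-square of 20.4 to 28.4 for each degree of freedom) than pairs of controls (4.08 to 10.9). The test thus cannot show that the control vectors are alike.

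Of the 71 members, 14 did not pass the filter on low counts. Ephb1, Slit3 and Robo4 had no read in any library, which allows up to 0.204 to 0.220 CPM in single shCrebbp libraries and 0.153 to 0.219 CPM in single controls (3 counts, counting error only). Dock1, an effector gene that most cells use, also had no read in any library, so a count of 0 in these files may come from the annotation. Epha3, Epha6, Ephb4, Efna4, Nrp2, Plxnb3, Robo3, Sema3b, Ntn5, Ntng1 and Unc5d had reads but were at or below 0.579 CPM on average in controls. Among these, Epha3 had 13, 41 and 10 reads with hairpins 1, 2 and 5, against 10, 9 and 1 in controls, and Nrp2 10, 37 and 6 reads, against 13, 8 and 8. Both had their highest count with hairpin 2. Efna4 lies beside Efna3 and Efna1 on chromosome 3, all of them below 1 CPM on average in controls.

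Other genes of the pathway were read against all tested genes, of which 1.25% passed the test and 16.5% had an unadjusted p under 0.05. Of 25 tested co-receptors and partners none was called (edgeR, 10 at an unadjusted p under 0.05), and the median log2 fold change was -0.03. The smallest p values belonged to Itga3, an integrin subunit gene (79.6 CPM in shCrebbp cells and 118.5 CPM in controls on average, log2 fold change -0.57 ± 0.12, edgeR adjusted p = 0.0623), and to Nrcam, a neural adhesion molecule gene (55.0 and 77.4 CPM, -0.49 ± 0.10, adjusted p = 0.0669). Of 67 tested intracellular effectors 1 was called lower and none higher (19 at an unadjusted p under 0.05), with a median log2 fold change of 0.03. This was Myo10, which encodes an unconventional myosin of filopodia that carries Dcc. Myo10 fell to 13.8, 12.1 and 14.9 CPM with hairpins 1, 2 and 5, against 31.3, 28.7 and 23.6 CPM in controls (log2 fold change -1.04 ± 0.14, edgeR adjusted p = 0.0222). In each list the genes at an unadjusted p under 0.05 included higher as well as lower ones. Higher were, for example, the partner gene Cntn1 (1.75 CPM in shCrebbp cells and 0.304 CPM in controls on average, log2 fold change 2.50, edgeR adjusted p = 0.0689) and the effector gene Enah (27.2 and 8.62 CPM, 1.65, adjusted p = 0.0840).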

How the data were processed

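Poly(A) RNA from 500 ng of total RNA was sequenced, per the labels' protocols. Tools named in the submitters' processing notes are HTSeq 0.6.1, TopHat2 2.0.12 and bcl2fastq 1.8.2, and the genome build is mm9. For the annotation and strand setting, the answer is not given in the sources used here, so antisense or overlapping genes may share reads. The authors deposited raw counts of reads for each gene symbol, in a file for each library. The 5 HTSeq summary rows (24.8% to 28.9% of counts) were left out. Libraries of a group differed beyond sampling noise (a chi-square of 4.08 to 28.4 for each degree of freedom).

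The test was the robust quasi-likelihood test of edgeR 4.0.16 (R 4.3.3), with TMM scaling, the filterByExpr filter and group as the only term, with Benjamini-Hochberg adjustment over 13390 genes and a threshold of 0.05. CPM is TMM-scaled, log2 CPM uses a prior count of 2, and the SE of a log2 fold change comes from its F statistic. The fit was tested on simulated data, with changes set in genes drawn from all tested genes. For shCrebbp against control it called 73 of 100 genes changed 2-fold and 95 of 100 changed 4-fold. For shNS against shEmpty it called 50 and 86 of 100. Smaller changes were not simulated. DESeq2 1.42.0 and limma 3.58.1 were alternatives, with other scalings and filters and each library left out. Exon length is the union of GENCODE M21 exons (GRCm38, another build, so only used for length, exon overlaps and neighbours), found for all 71 members. Members and lists were chosen with earlier results of these data known. The rule for named members took the 10 with the smallest p, the 12 highest in controls, the highest of each family, the 6 with the widest spread among hairpins (average log2 CPM of at least 2) and those without reads. Other members were named after their values were seen. Per pathway list the called genes or the 2 with the smallest p were named, and Cntn1 and Enah were added after their values were seen. Floors cover counting error only, while SD and SE values also include differences between libraries.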

Additional observations from a re-analysis of the deposited data

How the results depend on the processing

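The count of 0 called members also held in edgeR with RLE or upper quartile scaling, with a filter of 1 CPM in 3 libraries, without robust estimation and in limma-voom. It was 1 without a filter (Epha2, lower; 1.30% of genes), 6 with DESeq2 (2 lower, 4 higher; 5.30%) and 4 in limma-voom with quality weights (3 lower, 1 higher; 5.09%). Without 1 library it ranged from 0 to 4 (lower 0 to 3, higher 0 to 2). It was 4 without hairpin 1 (Plxna1, Epha2 and Slit1 lower, Epha7 higher; 2.72% of genes), 3 without hairpin 5 (Ntn4 lower, Sema4g and Dcc higher; 2.87%) and 0 in the other omissions. Without control replicate 1 or 2, no gene of the table was called. The median log2 fold change of tested members was 0.0125 in limma-voom and -0.0938 with quality weights, and without 1 library it ranged from -0.0574 to 0.162. The alternatives were run for single genes on the 29 members that the naming rule took, of which 21 kept their sign in all 14 alternatives. The others turned sign only without 1 library, with log2 fold changes of -0.47 to 0.11 (Robo1), -0.0619 to 0.22 (Efnb1), -0.38 to 0.14 (Plxna1), -0.16 to 0.00921 (Plxna2), -0.30 to 0.23 (Epha8), -0.52 to 1.01 (Plxna4), -0.68 to 0.0404 (Sema5a) and -0.25 to 0.63 (Unc5b). None of these 8 was called with all 6 libraries by edgeR. The alternatives reuse the same libraries, and 10 of the 29 were taken for a small p in them. A kept sign is thus no independent support. The members below 1 CPM rest on few reads, and detectability by level was not tested. No paired analysis was possible because the numbers of the shCrebbp libraries name hairpins, and only 1 control library carries a number in its label.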
